A study of Mus musculus with 6 samples.

Results

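5-Hydroxymethylcytosine (5hmC) was profiled in brain tissue of C57BL/6 mice with ischemic injury (I/R) and of matched control mice, with 3 mice per group. The labels give the strain, the tissue and the group of each mouse, while age, sex, brain region and time after injury are not stated in them. The assay was hMe-Seal, in which each 5hmC base receives a chemically tagged sugar by which fragments bearing it are pulled out for sequencing. The data were 1 list of enriched regions (peaks) per group on mouse build mm9, with a position and the peak caller's own score for each peak, and no values for single mice. The regions described here are injury peaks on chromosomes 1 to 19 that overlapped 2 or more peaks of the control list by at least 1 bp each, together with those control peaks. They comprised 987 of the 53341 injury peaks on these chromosomes and 2011 of the 20555 control peaks, 2998 of 73896 regions in all. The whole lists, with the X chromosome, hold 53374 injury and 20583 control peaks, and 0 of the 33 injury peaks on X bridged control peaks, a count of 0 that allows a share of up to 9.09% (3 counts) or 10.6% (exact upper bound).

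5hmC arises when TET enzymes oxidise 5-methylcytosine. It is plentiful in neurons, where it lies over the bodies of active genes and at enhancers, often as broad stretches and not as sharp points. A peak caller can divide such a stretch where enrichment falls below its threshold, so 1 stretch can stand in a list as 1 wide peak or as several close ones. The regions in question are the places where the control list had several peaks and the injury list had 1 peak across the break between them. Members were chosen by the measured peak positions of both lists, so their width, score and overlap are given as descriptions without a test. Since single mice have no list of their own, no difference can be set against the spread between mice, and the 95% intervals given below cover counting error alone. The number of reads behind each list is unknown.

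Bridging by an injury peak was uncommon. The 987 members (exact Poisson interval 926 to 1051) were 1.85% of all injury peaks, and 5.42% of the 18226 injury peaks that overlapped any control peak. The 2011 control peaks under them were 9.78% of the control list. Most members, 906 (91.8%), joined 2 control peaks. A further 73 (7.40%) joined 3 control peaks, 7 joined 4 and 1 joined 5. Together they closed 1077 breaks between neighbouring control peaks. All 19 autosomes held members, from 12 on chromosome 14 to 104 on chromosome 4.

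The peak over the most control peaks lay on chromosome 15 (84223071 to 84242631, 19.6 kb, score 55.69). It took in 4 of its 5 control peaks whole and 70.3% of the last one. The gaps between the 5 were 43, 377, 219 and 3636 bp, and the control scores lay between 60.37 and 120.81. Its score was close to the lowest value in the list, 50, and placed it at rank 47160 among the injury peaks. The next 4 members by this count each joined 4 control peaks. A 12.9 kb peak on chromosome 15 (79250361 to 79263230, score 647.81) closed gaps of 3767, 364 and 177 bp. An 8.76 kb peak on chromosome 11 (117140711 to 117149470, score 619.07) held the 2 inner control peaks whole, but only 21 bp of its first control peak and 569 bp of its last. The others were a 15.8 kb peak on chromosome 11 (118338713 to 118354485, score 295.56) and a 12.9 kb peak on chromosome 4 (149365801 to 149378733, score 276.77). The chromosome 4 peak closed 3 small gaps of 70, 167 and 122 bp and lay on control peaks for 97.2% of its length. These regions thus ranged from a peak almost wholly on close control peaks to a peak that took in little of the outermost control peaks.

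**Figure D1:**
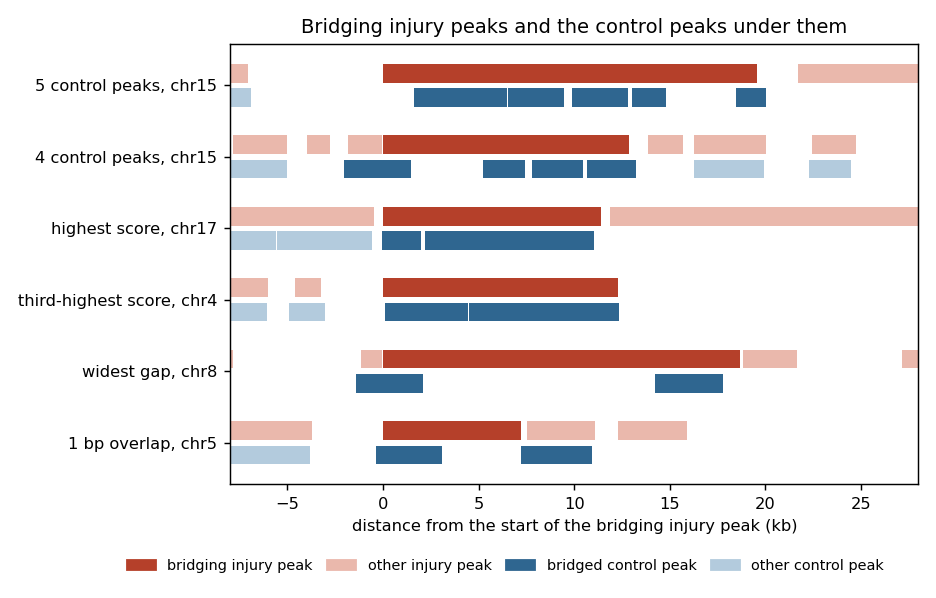
Peak positions around 6 bridging injury peaks, 1 region per row. The horizontal axis is the distance in kb from the start of the bridging peak, dark red bars are the bridging peaks, dark blue bars the control peaks they overlap, and pale bars other peaks of the same lists. The top row shows 5 control peaks under 1 injury peak of 19.6 kb, and the bottom row a region that qualified through an overlap of 1 bp.

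The 5 members with the highest scores each joined 2 control peaks. The first by score lay on chromosome 17 (27565536 to 27576917, 11.4 kb, score 1670.17, rank 8 in the injury list) and closed a gap of 250 bp between control peaks scored 104.94 and 1012.67. The second was on chromosome 8 (73434369 to 73441777, 7.41 kb, score 1653.5) and closed a gap of 498 bp. Its control peaks had very unequal scores of 3100 and 82.79. On chromosome 4 (62167941 to 62180252, 12.3 kb, score 1429.22) the break was only 46 bp, and 98.7% of the injury peak lay on its control peaks, which scored 147.09 and 441.54. A 9.74 kb peak on chromosome 5 (114901115 to 114910851, score 1260.13) closed 131 bp. An 8.56 kb peak on chromosome 4 (43433419 to 43441977, score 1136.51) closed 162 bp. In these 5 regions the break was under 500 bp, as in 582 of all 987 members (59.0%) at 500 bp or less. Injury scores are not set against control scores, since a score depends on the depth of its list.

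The 5 widest breaks lay under injury peaks of 10.4 to 23.5 kb. The widest of all, 12109 bp, lay on chromosome 8 (123261901 to 123280561) under an injury peak of 18.7 kb with a score of 104.93, and only 30.3% of that peak lay on its control peaks. The other 4 were on chromosome 4 (117824573 to 117837857, widest break 7624 bp, score 95.88), chromosome 11 (115092435 to 115108867, 7461 bp, score 273.59), chromosome 13 (53007730 to 53018091, 6895 bp, score 51.89) and chromosome 5 (111692731 to 111716218, 6512 bp, score 72.41). The chromosome 4 peak reached only 34 bp into the last of its 3 control peaks. Of these 5 scores, 3 were under 100, while the chromosome 11 peak was in the highest-scoring 10% of the injury list. Among all members with a break over 5000 bp, 4 of 7 scored under 100, against 17 of 204 members (8.33%) whose widest break was 100 bp or less and 6 of 94 (6.38%) with a widest break of 2000 to 5000 bp. With 7 members the share for breaks over 5000 bp is imprecise.

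Most breaks that injury peaks closed were short. The 1077 closed gaps had a median of 371 bp (order-statistic interval 333 to 400 bp), with quartiles of 123 and 816 bp. Gaps of at most 100 bp made up 21.0% of them (226), gaps of at most 500 bp 60.4% (651) and gaps of at most 1000 bp 79.1% (852). Only 7 gaps (0.65%) were over 5000 bp. The 5381 gaps of at most 5 kb that no injury peak closed had a median of 1985 bp. The closed gaps summed to 0.767 Mb, or 11.5% of the 6.67 Mb covered by the bridging injury peaks. Another 79.6% of these bases lay on control peaks, and 8.90% lay beyond the outer ends of the joined control peaks. As wider breaks were closed, a smaller part of the injury peak lay on control peaks. The median share on control peaks was 96.9% where the widest break was at most 100 bp, 82.7% with 500 to 1000 bp and 59.6% with 2000 to 5000 bp. Score moved little over the same classes, with medians of 306.5, 329.4 and 298.2, and median width went from 4916 bp to 6082 bp and 8810 bp. Cover and width depend on the break by construction, since the injury peak has to span it.

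**Figure D2:**
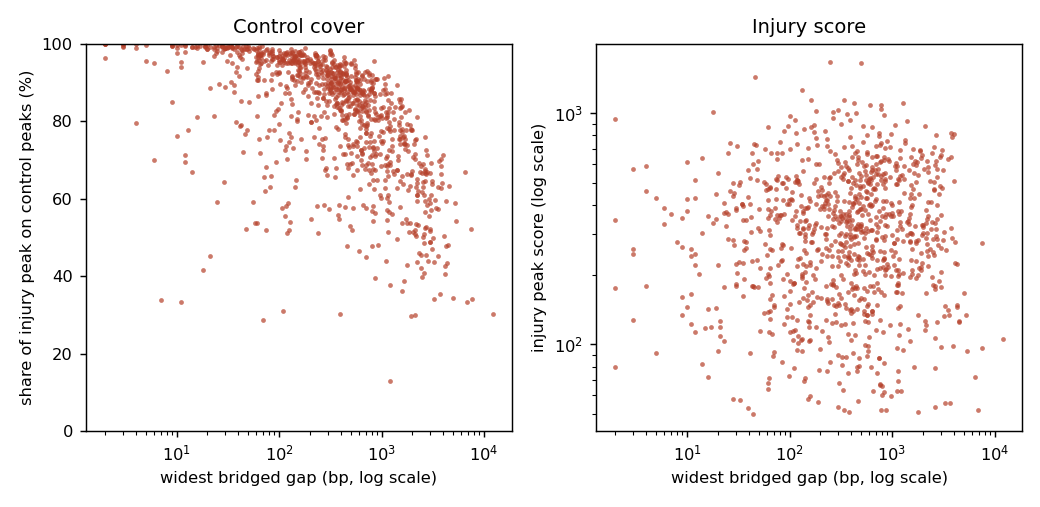
Each point is 1 of the 987 bridging injury peaks. The horizontal axes give the widest gap it closed in bp on a log scale, the left vertical axis the percent of the injury peak that lies on control peaks, and the right vertical axis its score on a log scale. Cover falls toward wide gaps, and scores spread from 50.1 to 1670.17 over most of the range of gaps.

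Bridging peaks seldom enclosed all of their control peaks. Some but not all of the control peaks lay wholly inside in 478 members (48.4%), and none did in 399 (40.4%). In 110 of 987 members (11.1%, exact Clopper-Pearson interval 9.25 to 13.3%) the injury peak reached to or past both outer ends of the joined control peaks. In 448 (45.4%) it reached 1 outer end, and in 429 (43.5%) it began and ended inside control peaks. The enclosing members were the widest and highest in score, at medians of 9629 bp and 436.7. Members that reached 1 outer end had medians of 6666 bp and 345.0, and those that reached none 4177 bp and 229.6. The span of the joined control peaks differed little among the 3 kinds, with medians of 7967, 7798 and 8015 bp. With like spans, the order of the widths follows from how the 3 kinds are defined. Over all members the injury peak had a median of 0.79 times the length of the control span (quartiles 0.53 and 1.01). Of the 2064 overlaps between a member and a control peak, 758 (36.7%) took in the whole control peak and 271 (13.1%) took in under 10% of it. In 458 members (46.4%) every joined control peak was at least 50% inside.

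Some members owe their place to a few bases. The smallest overlap was under 100 bp in 130 members (13.2%) and under 500 bp in 303 (30.7%). A 7.21 kb peak on chromosome 5 (119093078 to 119100289, score 276) and a 2.73 kb peak on chromosome 2 (59670534 to 59673267, score 275.83) each met 1 of their 2 control peaks by 1 bp. A 2.32 kb peak on chromosome 17 (30331558 to 30333874, score 305.5) met 1 of its 2 by 2 bp. Just outside the limit, 3 injury peaks with 1 control overlap ended 2 bp short of another control peak. They lay on chromosome 10 (75829365 to 75836865, score 215.05), chromosome 4 (141036207 to 141037655, score 52.07) and chromosome 5 (115516784 to 115520646, score 120.58). In all, 207 of the 17239 injury peaks with exactly 1 overlap had a further control peak within 100 bp and 1373 had one within 500 bp. Peaks on either side of the limit can therefore differ by a few bases.

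Bridging injury peaks were wide and high in score within their own list. Their median width was 5918 bp (quartiles 3920 and 8658 bp), against 2497 bp (1775 and 3638 bp) for injury peaks that overlapped exactly 1 control peak. Their median score was 307.5 (179.6 and 473.8), against 135.3 (84.8 and 221.4). Width grew with the number of control peaks joined, from a median of 5615 bp with 2 to 12637 bp with 3 and 14138 bp with 4 or 5. The highest-scoring 10% of the injury list held 634 of the members (64.2%) and 22.6% of the peaks with exactly 1 overlap. A wide peak can reach more control peaks, so width is tied to the rule. At like widths the scores lay close together. From 2 to 3 kb the median score was 131.0 for 88 members and 128.9 for 5117 peaks with 1 overlap. From 3 to 4 kb it was 190.4 and 191.5, from 4 to 6 kb 314.8 and 275.5, from 6 to 10 kb 428.6 and 402.6, and at 10 kb or more 399.7 and 409.7.

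The share of overlapping injury peaks that bridged rose with width. It was 0.76% (44 of 5816) under 2 kb, 3.96% (121 of 3052) from 3 to 4 kb, 24.4% (305 of 1252) from 6 to 10 kb and 61.4% (175 of 285, interval 55.5 to 67.1%) at 10 kb or more. The 44 members under 2 kb lay across short breaks, with a median of 144.5 bp, and 42 of them reached neither outer end. The narrowest member, named after its values were seen, was a peak of 848 bp on chromosome 4 (149279318 to 149280165, score 50.72) over a break of 383 bp. At the other end, the widest member measured 28000 bp on chromosome 17 (28137795 to 28165794, score 87.78). It enclosed control peaks of 8.83 and 13.2 kb that lay 358 bp apart.

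**Figure D3:**
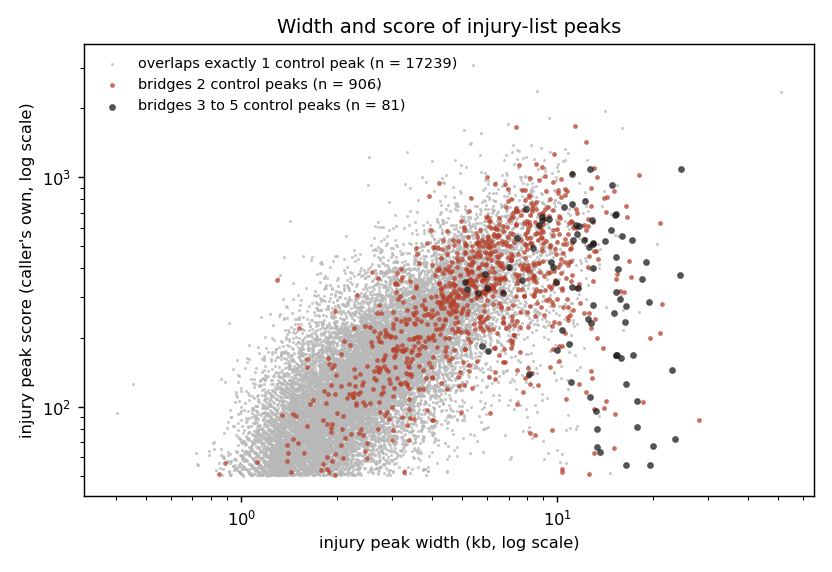
Width in kb (horizontal, log scale) and score (vertical, log scale) of injury peaks on chromosomes 1 to 19 that overlap control peaks. Grey points overlap exactly 1 control peak, red points bridge 2 and black points bridge 3 to 5. The bridging peaks lie in the wide part of the same cloud, and a few wide ones have scores near the lowest value of 50.

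The control peaks under the members were also above the middle of their list. The median of the 2011 bridged control peaks was 3238 bp in width and 99.7 in score, against 2765 bp and 83.6 for the 14710 other control peaks that overlapped an injury peak. The highest-scoring 10% of the control list held 16.9% of the bridged control peaks (15.3 to 18.6%) and 11.1% of those others (10.6 to 11.6%). Within a region the highest control score cannot be below the lowest by construction, so the values that follow are description. Control peaks that were not joined were not compared in this way. The lowest-scoring control peak of a region had a median score of 72.2 and the highest-scoring one a median of 143.3. The score of the highest exceeded that of the lowest by a median of 57.1 (quartiles 22.1 and 133.3), and by 100 or more in 313 regions (31.7%). Of the 2011 bridged control peaks, 716 (35.6%) were under the control median score. At least 1 such peak was present in 571 regions (57.9%). In 128 regions (13.0%) all of the control peaks were under it. Whether these counts by region differ from what the share of single peaks gives was not tested. Of the 906 regions with 2 control peaks, the wider one had the higher score in 643 (71.0%). The largest score difference within a region was on chromosome 15 (76002049 to 76026659), where control peaks of 12.8, 7.52 and 1.98 kb scored 3100, 131.63 and 61.04. One injury peak of 24.6 kb with a score of 1087.72 enclosed all 3 of them. The next largest was in the chromosome 8 region named above, which also holds a control peak scored 3100, so the order of these regions is set by their lowest scores of 61.04 and 82.79. The chromosome 15 region was named after its values were seen.

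Bridging and splitting of peaks also met in the same place. In 558 of the 987 regions (56.5%, 53.4 to 59.7%) at least 1 of the joined control peaks also overlapped another injury peak. Of the bridged control peaks, 608 (30.2%) did so, and over all 16721 overlapped control peaks 2355 (14.1%) overlapped 2 or more injury peaks. Bridged control peaks were also wider than the others, and the part of width in this difference was not tested. Members and all peaks connected to them by overlap formed 934 separate groups with a median length of 8.95 kb. In 429 groups (45.9%) there was 1 injury peak, and 395 of these had exactly 2 control peaks. The other 505 groups held 2 or more injury peaks, and 48 groups held 2 or more bridging peaks. In 449 groups the injury peaks were as many as the control peaks or more. No group held more than 3 bridging peaks, a number that 5 groups reached. The longest of these 5 was on chromosome 5 (114832375 to 114866007, 33.6 kb), where 4 injury peaks, 3 of them bridging, met 6 control peaks. It too was named after its values were seen.

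Each pair of neighbouring control peaks was then followed into the injury list, to see how bridging depended on the gap. Within 5 kb there were 6451 such pairs, and an injury peak joined 1070 of them (16.6%, 15.7 to 17.5%). In 4062 pairs (63.0%) each control peak was overlapped by different injury peaks only, in 1117 pairs 1 of the peaks was overlapped, and in 202 neither. The joined share fell with the gap. It was 44.3% (41.8 to 46.9%) for gaps up to 500 bp, 21.4% (18.8 to 24.2%) from 500 to 1000 bp, 9.55% (7.99 to 11.3%) from 1000 to 2000 bp, 3.47% (2.82 to 4.22%) from 2000 to 5000 bp and 0.23% (0.084 to 0.50%) from 5000 to 10000 bp. Beyond 10000 bp, 1 of 11475 pairs was joined. In the 4062 pairs overlapped apart, injury peaks covered a median of 19.5% of the control gap (quartiles 0 and 60.6%), and in 1205 of them the gap held no injury base. Breaks between injury peaks were also measured from the start of the first control peak to the end of the second. The widest of them had a median of 1492.5 bp and was at most 100 bp in 99 pairs (2.44%). It can lie within a control peak and not in the control gap.

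The reverse case, a control peak across a break of the injury list, was set beside this. There were 27212 pairs of neighbouring injury peaks within 5 kb, and a control peak joined 2581 of them (9.48%, 9.14 to 9.84%). The closed injury gaps had a median of 189 bp, against 371 bp for the closed control gaps. Injury gaps within 5 kb, closed or not, were also shorter, with a median of 1259 bp against 1611 bp for control gaps. Over all pairs within 5 kb the joined share was thus lower for injury pairs than for control pairs. In 40.5% of the injury pairs neither peak was overlapped by the control list, and in 36.0% only 1 was. The order turned when only pairs with both peaks overlapped by the other list were counted. On that count control peaks joined 2581 of 6388 injury pairs (40.4%, 39.2 to 41.6%), and injury peaks joined 1070 of 5132 control pairs (20.8%, 19.7 to 22.0%). For gaps up to 500 bp the shares were 72.4% and 51.7%, and from 2000 to 5000 bp they were 3.12% and 4.55%. This order did not hold when only the 20555 injury peaks of highest score were kept, a number equal to the control list: then 26.9% of injury pairs (25.4 to 28.4%) and 27.8% of control pairs (26.3 to 29.3%) were joined. It reversed when peaks of each list within 1 kb were merged first, with 18.3% of injury pairs and 28.5% of control pairs. Which list more often bridged the other therefore changed with the denominator, with the injury peaks kept and with the merging of close peaks. Keeping the highest scores changed length and score together. List length and depth cannot be told apart from the condition with 1 list per group.

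**Figure D4:**
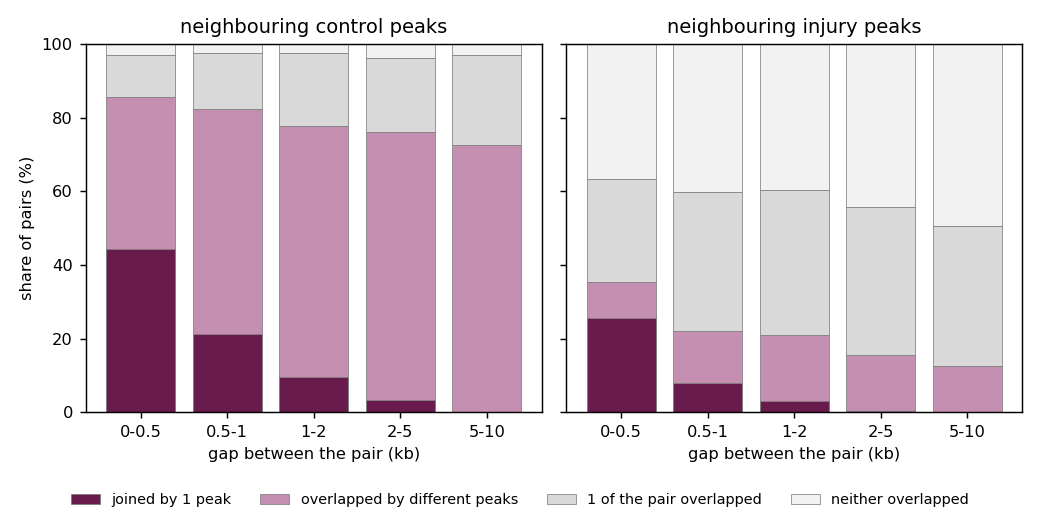
Neighbouring peaks of the control list (left) and of the injury list (right) by the gap between them in kb, and their state in the other list as a percent of pairs. The darkest part is the share joined by 1 peak of the other list, which falls from 44.3% to 0.23% of control pairs and from 25.6% to 0.013% of injury pairs over the 5 gap classes.

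Members were unevenly spread over the chromosomes. Chromosomes 4 (104 members), 5 (100), 11 (99), 8 (92) and 2 (90) held 49.1% of them and 42.5% of all overlapping injury peaks. These 5 were picked by their number of members, which favours the higher share. As a share of overlapping injury peaks, bridging ran from 2.62% on chromosome 14 (12 of 458, 1.36 to 4.53%) and 2.97% on chromosome 6 (19 of 640, 1.80 to 4.597%) to 7.10% on chromosome 17 (82 of 1155, 5.69 to 8.74%) and 7.38% on chromosome 8 (92 of 1246, 5.99 to 8.98%). The intervals of chromosomes 3, 6 and 14 lay below the share of all autosomes, 5.42%, and those of chromosomes 8 and 17 above it. Here and below, the intervals by chromosome were not corrected for their number and are too narrow for grouped members. Members were grouped on chromosome 17, where the 1 Mb windows from 27, 28 and 30 Mb held 13, 11 and 14 of its 82. On chromosome 8 the windows from 122 and 123 Mb held 13 and 8 of its 92. Close control peaks were also fewer on the chromosomes with low shares. Pairs of control peaks within 5 kb numbered 19.7 per 100 control peaks on chromosome 6, 19.5 on chromosome 14 and 21.2 on chromosome 3, against 38.0 on chromosome 17 and 35.7 on chromosome 8. Among such close pairs, the joined share was 12.1% on chromosome 14 (6.63 to 19.9%), 13.4% on chromosome 6 (8.40 to 19.97%), 18.3% on chromosome 17 (14.9 to 22.0%) and 20.3% on chromosome 8 (16.8 to 24.1%). These 4 intervals overlapped. Chromosome 7, with 12.9% (10.04 to 16.1%), had an interval below those of chromosome 8 and of chromosome 12, which had the highest value, 23.2% (17.6 to 29.5%).

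**Figure D5:**
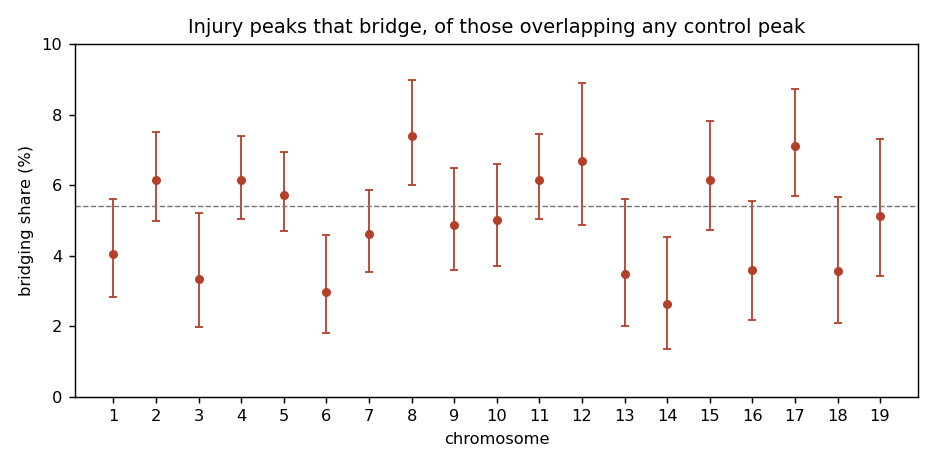
Percent of injury peaks overlapping any control peak that bridge 2 or more of them, by chromosome. Points are shares, bars are exact 95% Clopper-Pearson intervals, which cover counting error only, and the dashed line is the share over chromosomes 1 to 19, 5.42%. Chromosomes 8 and 17 lie highest and chromosomes 6 and 14 lowest.

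Within chromosomes some windows held many members. Windows of 1 Mb with a member numbered 413 of the 1440 with any overlapping injury peak (28.7%), and 212 of the 413 held 1 member. The 51 windows with 5 or more members held 358 of them (36.3%) and 3107 of the overlapping injury peaks (17.05%). These windows were picked by their members, so the higher share follows from the choice. The fullest windows, chosen after their values were seen, were on chromosome 17 from 30 to 31 Mb with 14 members among 87 overlapping injury peaks, and, with 13 members each, on chromosome 17 from 27 to 28 Mb (among 90), on chromosome 8 from 122 to 123 Mb (among 85) and on chromosome 5 from 114 to 115 Mb (among 73). The control list held 72 to 81 peaks in each of these 4 windows. In 93 cases the next member on the chromosome began within 5 kb, and in 273 cases within 50 kb. Toward the distal end of the chromosomes members were frequent, as were overlapping injury peaks in general. The last 10% of the distance between the first and last injury peak held 30.0% of the members and 24.6% of the overlapping injury peaks. There 6.59% of overlapping injury peaks bridged (5.88 to 7.36%), compared with 4.17% (2.98 to 5.66%) in the first 10%. Whether these regions were joined in each mouse of the injured group is not known from the lists.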

How the data were processed

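DNA from brain tissue of 6 mice was enriched for 5hmC by hMe-Seal, per the labels' protocols. Build mm9 and the tools MACS 1.4.2, Bowtie 0.12.9 and CASAVA 1.4 come from the submitters' processing notes. The deposited lists give a position and a score for each peak. The score has a minimum of 50 in each list. It is taken to be the usual MACS score, a multiple of the negative log10 p-value. Scores are therefore compared within a list only, except for the score threshold below, where 1 value was applied to both lists. Settings, read numbers, any input control and any pooling of the 3 mice are not stated there.

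Each list was tied to its group by its name. Peaks within a list did not overlap, and gaps went down to 1 bp. Overlaps were computed with Python 3.11.15, numpy 2.4.6, pandas 2.3.3 and scipy 1.17.1, and plots with matplotlib 3.10.9. The overlap functions were tested on simulated chains and against a direct comparison on chromosome 19, with 0 errors. Positions count from 1. No mm9 genome or annotation was used here, so no gene or sequence is given.

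Shares carry exact Clopper-Pearson, counts exact Poisson and medians order-statistic 95% intervals, which treat neighbouring peaks as independent and are too narrow for grouped ones. Regions were named by rule: the 5 members with the most control peaks, the highest score and the widest gap, and 3 peaks on either side of the overlap limit, with ties at equal overlap ordered by score. Members and rules were chosen with earlier results of these data known. Alternatives were a score threshold, an injury list of reduced length, stricter overlaps, and merging of close peaks.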

Additional observations from a re-analysis of the deposited data

How the results depend on the processing

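When peaks of either list scored below 79.6, the control median, were dropped, the bridging peaks numbered 429, or 4.76% of overlapping injury peaks, and 8.40% of control peaks were bridged, while injury peaks joined 17.9% of control pairs within 5 kb. Of pairs with both peaks overlapped, 22.9% of control and 44.5% of injury pairs were joined. This threshold was 1 value for both lists, whose scores may not share a scale. With an injury list of only its highest scores, matched in number to the control list, 7.51% of overlapping injury peaks bridged, 8.87% of control peaks were bridged, and 15.1% of control and 12.3% of injury pairs were joined, or 27.8% and 26.9% of those with both peaks overlapped. For the stricter overlaps of 50% and 100 bp, an overlap counted only at that cover, in the denominators as well. Pairs with both peaks so overlapped numbered 4084 control and 4722 injury pairs at 50%, and 5106 and 6166 at 100 bp. At 1 bp they numbered 5132 and 6388. With 50% of each bridged peak covered, the members fell to 487 (3.41% of injury peaks with such an overlap, 5.01% of control peaks, median gap 405 bp), and the joined shares to 8.32% of control and 5.05% of injury pairs, or 13.1% and 29.1% with both overlapped. With 100 bp covered, the values were 4.79%, 8.63%, 14.6% and 8.41%, and 18.4% and 37.1% with both overlapped. Merging peaks within 1 kb gave 6.22%, 10.8%, 22.3% and 4.08%, 28.5% and 18.3% with both overlapped, and a median gap of 2533 bp, since narrower gaps are then closed beforehand. Merging within 100 bp, added after the data were seen, gave 5.08%, 9.06%, 7.36% of injury pairs, 33.3% of injury pairs with both overlapped, and a median gap of 557 bp. The counts over pairs with both peaks overlapped were also added then.

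Members numbered 863 to 895 under the settings not given a count above. Over all pairs within 5 kb, the joined share of control pairs exceeded that of injury pairs under each of these 6 settings. Fewer peaks enter with a score threshold, an injury list of reduced length or a merged list. For the reduced list and the stricter overlaps the cause of a move was not tested. No paired analysis was possible because the lists hold no values for single mice, and for the same reason no mouse was left out. Depth is unknown for either list.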
